A study of Canis lupus familiaris with 4 samples.

Results

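The S100 genes measured here are 8 genes of the S100 calcium-binding protein family, taken by gene name from a list of 10 symbols, out of 30951 genes in the table. S100A8, S100A12, S100A1, S100A11, S100A13, S100A14, S100A16 and S100B were present under their symbols. S100A4 and S100A10 were not analysed here under theirs. The list was chosen by gene name with the measured levels of these same libraries known, because S100A8 had led the antimicrobial genes by its level. The levels of the members are therefore given as a description, with no test.

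Total RNA was sequenced from mesenchymal stromal cells (MSCs) that were derived from adipose tissue of 4 dogs (Canis lupus familiaris), with 1 primary cell line and 1 library per dog. The cultures are called dog 1 to dog 4 after the library names. All 4 were untreated, grew in DMEM with fetal bovine serum, penicillin, streptomycin and fungizone, and were kept in 24-well plates for 48 h. The labels give 1 group only and no age, sex or breed is used here, so the data hold no contrast between conditions, and each culture stands for its dog, its cell line and its library at once. Libraries held 7474011 to 22411268 reads assigned to genes, and dog 4 was the shallowest.

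S100 proteins are small proteins that bind calcium through a pair of EF-hand loops and mostly act as dimers. Inside the cell they pass calcium signals on to partners such as annexins, myosins and p53. Some members are also released, and outside the cell they act as danger signals through receptors such as RAGE (AGER) and TLR4 or withhold metal ions from microbes. In stromal tissue S100A8 and S100A12 are usually read as products of neutrophils and macrophages, whereas S100A11, S100A13 and S100A16 are made by many cell types.

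Of the 8 measured S100 genes, 7 were detected, which means reads in at least 2 of the 4 libraries, and 6 had reads in all 4. S100A8 and S100A11 held most of the reads, S100A16 and S100A13 followed, and S100A1, S100B, S100A12 and S100A14 lay near or at 0 reads. A level is a gene's log2 value minus that of the median detected gene in the same library, and is given as mean ± SD over n = 4 dogs. On this scale 0 reads in a library stand at -3.94 to -3.97. Levels near those values lie at the floor, which also limits their SD. Across all 17200 detected genes, 33.3% were more than 1 log2 unit above that median and 35.8% more than 1 below (limma, Benjamini-Hochberg adjusted p under 0.05). Transcript lengths were not used here, so the order of the S100 genes is an order of reads and not of transcripts.

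**Figure D1:**
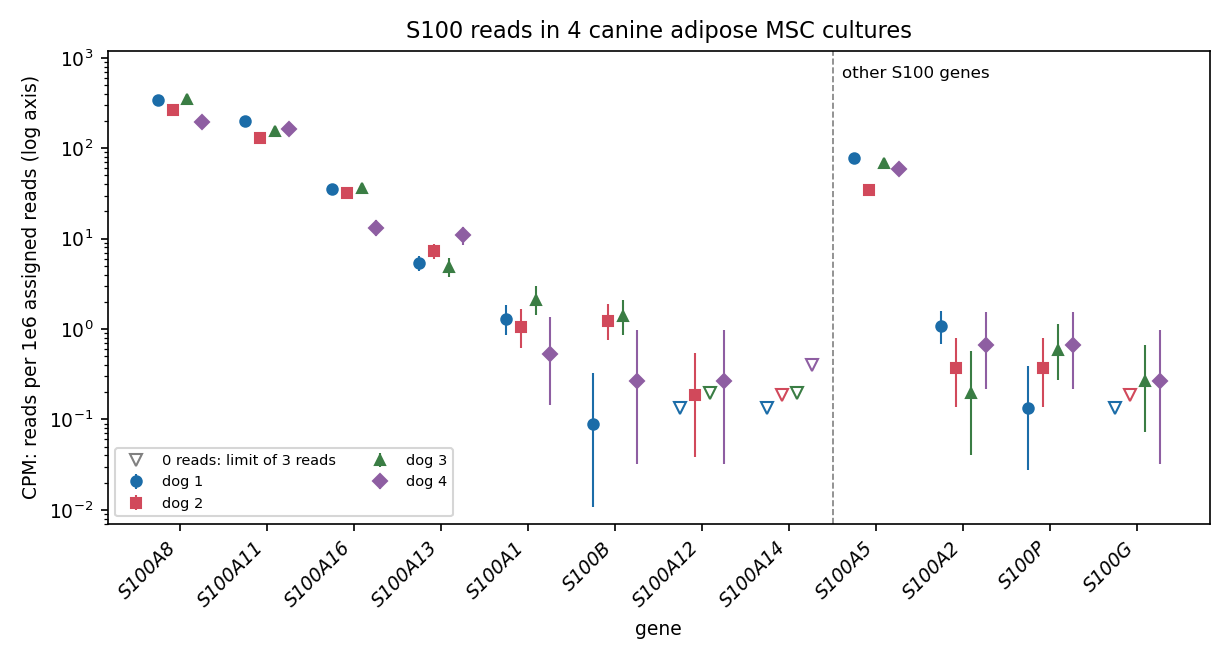
Counts per 1e6 assigned reads (CPM, log axis) of the S100 genes in the 4 cultures, with 1 point per dog and bars for 95% exact Poisson intervals, which cover counting error only; open triangles mark the limit that 0 reads allow, set at 3 reads. S100A8 lies between 193 and 348 and S100A11 between 130 and 201 CPM, whereas S100A12 has reads in 2 dogs and S100A14 in none.

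S100A8 (ENSCAFG00000017557) encodes a subunit of calprotectin, a complex with S100A9 that binds zinc and manganese. It had 7699, 4274, 5290 and 1444 reads in dogs 1 to 4, or 344, 263, 348 and 193 counts per 1e6 assigned reads (CPM). Dogs 1 and 3 were highest and dog 4 was lowest, and the highest CPM was 1.80 times the lowest. Only for dogs 1 and 3 did the 95% exact Poisson intervals of the CPM overlap. These intervals cover counting error only and are narrow at such read counts. S100A11 and S100A5, with fewer reads, were also separate in 5 of 6 pairs. The share of separate pairs over all genes was not computed, for S100A8 or for the S100 genes below. In the test of the spread between dogs given below, S100A8 did not pass (adjusted p = 0.98, F test, Benjamini-Hochberg). The level of S100A8 was 4.76 ± 0.37 (log2, SD, n = 4), above the median detected gene in each of the 4 dogs.

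S100A12 (ENSCAFG00000023324) encodes calgranulin C, a neutrophil protein that binds RAGE. In the RefSeq annotation of the assembly UU_Cfam_GSD_1.0 it is the next gene after S100A8, followed by S100A9, which was not analysed here under its symbol. S100A12 had 0, 3, 0 and 2 reads in dogs 1 to 4. Where it had no read, 3 reads, taken as the limit that a count of 0 allows, set a ceiling of 0.134 CPM in dog 1 and 0.197 CPM in dog 3. Over the 4 libraries S100A8 had 18707 reads and S100A12 had 5.

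Most defining transcripts of the blood cells that carry calprotectin were at or near 0 reads. Of 12 measured myeloid markers, none was above the median detected gene, 4 were below, 1 was neither and 7 were not detected (limma, Benjamini-Hochberg). The shares over all detected genes were 33.3% above and 35.8% below. The neutrophil growth factor receptor CSF3R, the oxidase subunit CYBB, lysozyme (LYZ), the macrophage gene AIF1 and the transcription factor SPI1 had 0 reads in every dog. S100A8 had 193 to 348 CPM per dog, and the whole list had 6.16 to 19.7 CPM in sum. The largest part of that sum was CSF1R, the receptor of the macrophage growth factor, with 103, 247, 289 and 48 reads in dogs 1 to 4. In CPM, CSF1R was highest in dogs 2 and 3, and S100A8 in dogs 1 and 3. Fewer cells of a type and less RNA per cell cannot be told apart in such bulk samples. The part of myeloid cells in the S100A8 reads was not tested.

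S100A11 (ENSCAFG00000012916), whose product binds annexin A1 and is found in membrane repair and in the cornified layer of the skin, had 4508, 2108, 2385 and 1236 reads in dogs 1 to 4. These were 201, 130, 157 and 165 CPM, highest in dog 1 and lowest in dog 2. The highest was 1.55 times the lowest, the smallest ratio among the 6 members with reads in every dog. Only the intervals of dogs 3 and 4 overlapped, and these cover counting error only. S100A11 did not pass the test of the spread between dogs either (adjusted p = 0.98, F test, Benjamini-Hochberg). The level was 3.97 ± 0.32 (log2, SD, n = 4).

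S100A8 had more reads than S100A11 in all 4 dogs, by factors of 1.71, 2.03, 2.22 and 1.17 in dogs 1 to 4. On the log2 scale S100A8 minus S100A11 was 0.79 ± 0.41 (SD, n = 4). Dog 4 had the smallest gap, and the pair did not move together: S100A8 was lowest in dog 4, and S100A11 in dog 2. Both genes differ between dogs by less than the gap in reads between S100A11 and the next member, S100A16.

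S100A16 (ENSCAFG00000017545), a member transcribed in most tissues, had 794, 519, 549 and 99 reads in dogs 1 to 4. Its CPM was 35.4, 31.9, 36.1 and 13.2. Dogs 1 to 3 were close to each other, with overlapping intervals, and dog 4 lay below all of them with a separate interval. The level was 1.46 ± 0.61 over the 4 dogs (log2, SD), with 0.57 in dog 4 and 1.63 to 1.90 in the others.

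S100A13 (ENSCAFG00000017542), which takes part in the release of FGF1 and interleukin 1 alpha without a signal peptide, ran the other way. It had 119, 118, 73 and 81 reads in dogs 1 to 4, or 5.31, 7.26, 4.80 and 10.8 CPM. Dog 4 was highest, with an interval separate from those of dogs 1 and 3 but overlapping that of dog 2. The level was -0.37 ± 0.50 (log2, SD, n = 4), close to the median detected gene.

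S100A1 (ENSCAFG00000047515), a regulator of calcium release and uptake in heart and skeletal muscle, had 29, 17, 32 and 4 reads in dogs 1 to 4. Only the intervals of dog 3 (2.10 CPM) and dog 4 (0.54 CPM) were separate, and the level was -2.18 ± 0.40 (log2, SD, n = 4). In the RefSeq annotation S100A1 overlaps S100A13, and the strand setting of the read counter is not given in the sources used here. Reads of these 2 genes may therefore be split between them, and their values are uncertain.

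S100B (ENSCAFG00000012228), known from glia, melanocytes, chondrocytes and adipocytes, had 2, 20, 21 and 2 reads in dogs 1 to 4. That is 0.089, 1.23, 1.38 and 0.27 CPM, a 15.5-fold ratio of dog 3 over dog 1 that rests on 21 and 2 reads. The intervals of dogs 2 and 3 were separate from that of dog 1 and overlapped that of dog 4. The level was -2.67 ± 0.65 (log2, SD, n = 4). S100A14 (ENSCAFG00000017544), an epithelial member, had 0 reads in all 4 libraries, which allows up to 0.0489 CPM over their sum.

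No measured marker of the other cells in which S100B and S100A14 are known passed the test for a level above the median detected gene over the 4 dogs, though a few were well covered. The shares over all detected genes were 33.3% above and 35.8% below. Of 11 measured glial and melanocyte genes, 5 were below the median detected gene, 2 were neither and 4 were not detected (limma, Benjamini-Hochberg), and the list summed to between 18.7 and 26.1 CPM per dog. GFAP, the glial filament gene, the Schwann cell cadherin gene CDH19 and the pigment enzyme gene TYR had 0 reads in every dog. The pigment cell factor MITF, which other cells use too, was neither, at 0.81 ± 0.15 with 373, 322, 238 and 117 reads in dogs 1 to 4. Of 9 measured adipocyte and chondrocyte genes, 7 were below, 1 was neither and 1 was not detected, with sums of 20.3 to 32.0 CPM. Perilipin (PLIN1), which coats fat droplets, had 3, 0, 23 and 6 reads, and aggrecan (ACAN), a cartilage proteoglycan, had 15, 12, 31 and 5. PPARG, the adipogenic receptor gene, was the 1 that was neither (0.81 ± 0.69), with 467, 370, 347 and 53 reads. By level, PLIN1 and ACAN were highest in dog 3, as S100B was, though S100B had nearly as many reads in dog 2. The other detected genes of that list were highest elsewhere: LEP and COMP in dog 4, SOX9, MATN3 and PPARG in dog 2, and COL2A1 in dog 1. SOX9 was lowest in dog 3, and PPARG was lowest in dog 4. The part of such cells in the S100B values was not tested. Of 8 measured keratinocyte and epithelial genes, 2 were below, 2 were neither and 4 were not detected, and the cadherin CDH1 and the basal cell factor TP63 had 0 reads. The keratins KRT10 (0.22 ± 0.33, with 324, 140, 169 and 73 reads) and KRT18 (-1.22 ± 2.58) were the 2 that were neither.

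The 8 S100 genes together took 0.0587%, 0.0434%, 0.0549% and 0.0384% of the assigned reads in dogs 1 to 4, or 0.0489% ± 0.0095 (SD, n = 4). The highest share was 1.53 times the lowest. S100A8 made up 58.5%, 60.5%, 63.4% and 50.3% of these S100 reads, and S100A11 made up 34.3%, 29.9%, 28.6% and 43.1%. S100A16 contributed 6.04%, 7.35%, 6.57% and 3.45%, and S100A13 0.90%, 1.67%, 0.87% and 2.82%. Dog 4 thus had the smallest shares of S100A8 and S100A16 and the largest shares of S100A11 and S100A13.

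**Figure D2:**
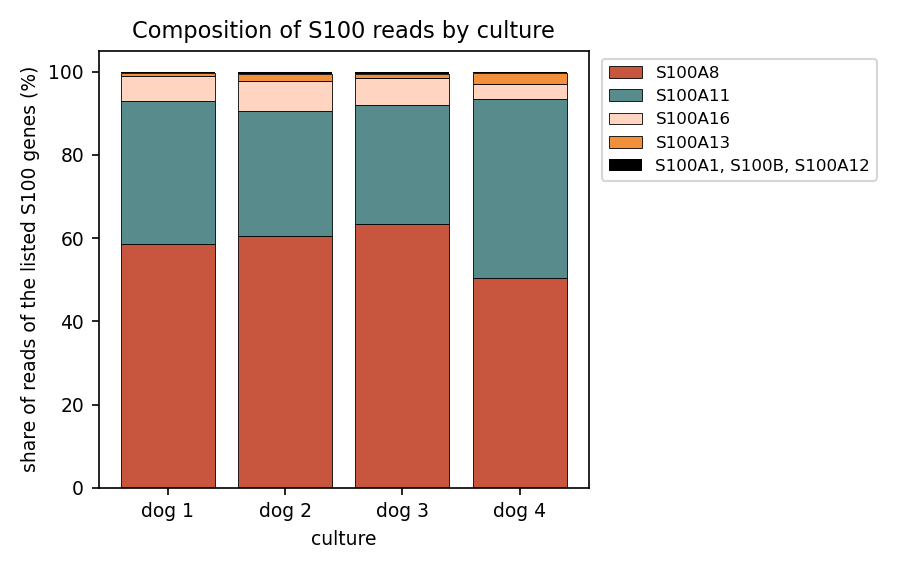
Share of the reads of the 8 S100 genes that fell on each gene (%, stacked to 100) in the cultures of dogs 1 to 4; S100A1, S100B and S100A12 are drawn together, and S100A14 had no reads. S100A8 takes 50.3% of these reads in dog 4 and 58.5% to 63.4% in the other dogs, and S100A11 takes 43.1% in dog 4 and 28.6% to 34.3% in the others.

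The spread between dogs was measured apart from the level. The 7 detected S100 genes had SDs of 0.32 to 0.65 log2 units with a median of 0.49, against a median of 0.36 over all 17200 detected genes. The share of all detected genes past the test of variability against limma's trended prior was 0% (0 of 17200 after Benjamini-Hochberg adjustment, 895 at an unadjusted p under 0.05). The smallest adjusted p of the members in that test was 0.96, for S100A16, with an unadjusted p of 0.055. The SD of S100A16 was 0.61, against 0.29 that the trend gives for genes of its level. For S100A8 the SD was 0.37 against 0.26, and for S100A11 0.32 against 0.25. S100A1 and S100A12, with few reads, had SDs under the trend, at 0.40 against 0.55 and 0.49 against 0.51. S100A13 (0.50 against 0.43) and S100B (0.65 against 0.54) lay slightly over it.

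**Figure D3:**
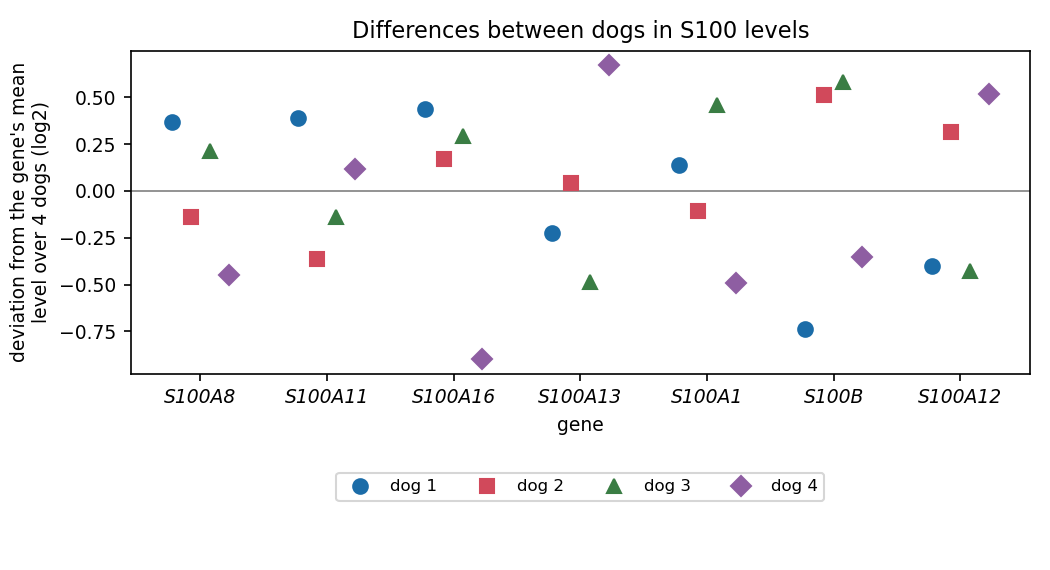
Level of each detected S100 gene in each culture minus that gene's mean over the 4 dogs (log2), with 1 point per dog and genes in order of mean level. Dog 4 lies at -0.90 for S100A16 and -0.45 for S100A8 but at 0.67 for S100A13, and dogs 2 and 3 lie above 0.50 for S100B.

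Dog 4 was the highest or the lowest culture for several transcripts outside the S100 genes. The keratin gene KRT18, a filament of simple epithelia, had 9, 9, 25 and 435 reads in dogs 1 to 4 and a level of 2.60 in dog 4, and PPARG was lowest there. The cytokine gene IL6 had 57, 4, 14 and 300 reads, so that its level ran from -3.12 in dog 2 to 2.08 in dog 4. With 12 measured genes, the MSC list summed to 93434 CPM in dog 4 and to between 134704 and 138448 CPM in dogs 1 to 3. The collagen genes COL1A1, COL1A2 and COL3A1 made up most of these sums, and each was lowest in CPM in dog 4. CD44, PDGFRA, PDGFRB, VIM and NT5E were also lowest there. DCN and LUM were instead highest in dog 4, at 3313 and 2128 CPM, and THY1 and ENG were neither highest nor lowest there. The part of these differences, and of the lower depth of dog 4, in its S100 values was not tested. Against the cell type given by the labels, 11 of the 12 MSC genes lay above the median and 1, NT5E, below (limma, Benjamini-Hochberg). All detected genes together had 33.3% above and 35.8% below. THY1, ENG, CD44, PDGFRA, PDGFRB, COL1A1, COL1A2, COL3A1, DCN, LUM and VIM were those above. With every gene of the table tested, COL1A1, COL1A2 and COL3A1 did not pass (adjusted p = 0.12, 0.053 and 0.20, limma) and 8 were above. Of all 30951 genes, 5740 were above in that setting.

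The profiles of S100A8 and S100A11 over the dogs were compared with those of 8305 named genes with at least 50 reads in every library. The measure was the root mean square difference between deviations from each gene's own mean over the 4 dogs. The genes nearest to S100A8 were ERCC1 (0.026 log2 units), ZNF622 (0.027) and RBM22 (0.033), and 88 genes (1.06%) lay within 0.1. Those nearest to S100A11 were CLCN4 (0.035), ACAT2 (0.038) and PFN1 (0.040), with 51 genes (0.61%) within 0.1. With 4 dogs such likeness is a description of these libraries.

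Among the other S100 family genes, 4 of 10 listed symbols were measured, of which 1 was above the median detected gene and 3 were below (limma, Benjamini-Hochberg). All detected genes together had 33.3% above and 35.8% below. S100A5, known from olfactory neurons, was the one above. It had 1745, 565, 1047 and 446 reads in dogs 1 to 4, lowest in dog 2 as S100A11 was, and a level of 2.51 ± 0.54 (SD, n = 4, adjusted p = 2.27e-05). In the RefSeq annotation S100A5 lies between S100A4 and S100A6, and neither of these was analysed here under its symbol. S100A2 (-2.71 ± 0.45), the placental S100P (-2.86 ± 0.33) and the calbindin S100G (-3.51 ± 0.52) were below, with 38, 23 and 6 reads over the 4 libraries. Of 7 fused S100 genes, which join an S100 domain to the repeats of skin barrier proteins, 3 were measured, and these were at or near 0 reads. CRNN had none, RPTN had 2 in dog 2, and TCHHL1 had 1 in dog 2 and 6 in dog 3.

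Genes of the receptors for secreted S100 proteins lay on both sides of the median detected gene. Of the 8 in the table, BSG, NPTN and ALCAM were the 3 above it and TLR4 the 1 below, 3 were neither and 1 was not detected, beside the 33.3% above and 35.8% below over all genes. Basigin (BSG), a receptor of S100A9 in human cells, stood at 5.91 ± 0.36 with an adjusted p of 4.33e-09 (limma, Benjamini-Hochberg, n = 4 dogs). It had 12414, 10515, 7692 and 6087 reads in dogs 1 to 4. Neuroplastin (NPTN), a receptor of S100A8 in human cells, stood at 4.23 ± 0.34, and ALCAM at 4.90 ± 0.90. ALCAM had 5207 reads in dog 4, against 4043, 5445 and 3273 in the deeper libraries of dogs 1 to 3. MCAM had a level of -0.35 ± 0.16, with 130, 125, 101 and 56 reads, and did not pass the test.

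AGER, which encodes RAGE, had 72, 46, 33 and 29 reads in dogs 1 to 4 and a level of -1.30 ± 0.32, which did not pass the test (adjusted p = 0.15, limma). TLR4, which senses bacterial lipopolysaccharide and also calprotectin, was below at -2.18 ± 0.26, with 14, 23, 23 and 9 reads. Its co-receptor LY96 stood at -0.62 ± 0.37 and did not pass. The scavenger receptor CD36 had 2 reads in dog 2 and none in the others, and CD14 was not analysed here under its symbol. The adaptors and kinases behind these receptors were mostly above: 11 of 13, with none below and 2 neither. All detected genes together had 33.3% above and 35.8% below. With the median taken over genes with reads in all 4 libraries, 6 were above and 1 below. Of all 17200 detected genes, 3729 were then above and 7479 below. IRAK1 (4.45 ± 0.45), NFKB1 (4.16 ± 0.03), RELA (3.69 ± 0.14), MAP3K7 (2.91 ± 0.12) and MAPK14 (2.82 ± 0.20) were the highest, and DIAPH1, the formin that binds the tail of RAGE, was also above at 2.47 ± 0.07. IRAK4 (1.33 ± 0.05, adjusted p = 0.018, limma) was not past the test without dog 1 (1.30) or dog 2 (1.34), with libraries thinned to the shallowest (1.23) or with that higher median (0.51). TIRAP (0.28 ± 0.29) and TICAM2 (-0.80 ± 0.12) did not pass.

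The genes of intracellular S100 partners were mostly abundant. Above the median detected gene were 20 of 26, while 4 were below and 2 were not detected (limma, Benjamini-Hochberg). The shares over all detected genes were 33.3% above and 35.8% below. MYH9, the non-muscle myosin heavy chain that S100A4 binds, stood at 8.12 ± 0.54, and ANXA2, the annexin that pairs with S100A10, at 6.92 ± 0.29. Both of those S100 genes were not analysed here under their symbols. AHNAK, the scaffold that S100A10 and annexin A2 hold at the membrane, stood at 6.40 ± 0.38, IQGAP1 at 5.46 ± 0.23 and ANXA6 at 5.27 ± 0.20. ANXA1, the partner of S100A11, had 8427, 4247, 6048 and 1451 reads and a level of 4.84 ± 0.45. ANXA1 was lowest in CPM in dog 4, where S100A11 had 165 CPM, against 130 in dog 2 and 157 in dog 3.

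Partners of S100A13, S100A1 and S100B were split. The cargo of S100A13 had few reads, with FGF1 at -2.73 ± 0.51, its co-factor SYT1 at -3.05 ± 0.62 and IL1A at -2.80 ± 1.11, all below the median detected gene. IL1A had 9, 4, 0 and 21 reads in dogs 1 to 4, highest in dog 4 as S100A13 was. Of the calcium channels and pumps that S100A1 binds in muscle, RYR1 was below at -3.04 ± 0.05 and RYR2 had 1 read in dog 1 alone, while the pump gene ATP2A2, which most cells use, was above at 5.00 ± 0.21. GFAP, a partner of S100B in astrocytes, had 0 reads.

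Among genes of the plasmin system and channels that S100A10 brings to the cell surface, 4 of 11 measured were above, none below and 7 not detected. The shares over all detected genes were 33.3% above and 35.8% below. The protease cathepsin B (CTSB, 4.55 ± 0.17), the urokinase receptor PLAUR (3.41 ± 0.56) and urokinase itself (PLAU, 2.54 ± 0.26) were among those above. Of the undetected channel and receptor genes, TRPV5, TRPV6, ASIC1 and HTR4 had 0 reads in every dog, as did plasminogen (PLG).

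Of 12 measured inducers and regulators of S100A8, 4 were above the median detected gene, 1 was below, 2 were neither and 5 were not detected (limma, Benjamini-Hochberg). Over all detected genes, 33.3% were above and 35.8% below, so 4 above is not read as a result about this list. The 4 above were intracellular: HIF1A (5.52 ± 0.69), the glucocorticoid receptor NR3C1 (4.56 ± 0.19), STAT3 (3.79 ± 0.24) and the C/EBP factor CEBPB (2.42 ± 0.84). CEBPB had 821, 535, 924 and 864 reads in dogs 1 to 4. In dog 4, where S100A8 was lowest in CPM, CEBPB and HIF1A were highest, whereas STAT3 and NR3C1 were lowest. The part of these genes in the S100A8 values was not tested. SPI1, the myeloid factor, and the cytokines TNF, IFNG and IL22 had 0 reads in all dogs. IL1B was below at -2.25 ± 0.29, and IL6 (-1.21 ± 2.30) did not pass the test with all dogs but was below without dog 4 (-2.31).

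Other EF-hand calcium proteins were mostly abundant, with 17 of 22 measured genes above, none below, 3 neither and 2 not detected (limma, Benjamini-Hochberg). All detected genes together had 33.3% above and 35.8% below. The calpain genes CAPN2 (5.86 ± 0.08) and CAPNS1 (5.01 ± 0.24), RCN3 (4.65 ± 0.50) and NUCB1 (4.05 ± 0.28) were among the highest. CALB1 and CALB2 were the 2 not detected. The detected S100 members had levels from -3.54 to 4.76, and the EF-hand list had a median level of 2.68. The median levels of the other lists, undetected members included, were 3.76 for intracellular partners, 1.95 for signalling genes, -0.48 for receptors, -1.73 for regulators of S100A8 and -3.86 for the S100A10 list. The median of all detected genes is 0 on this scale by construction.

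**Figure D4:**
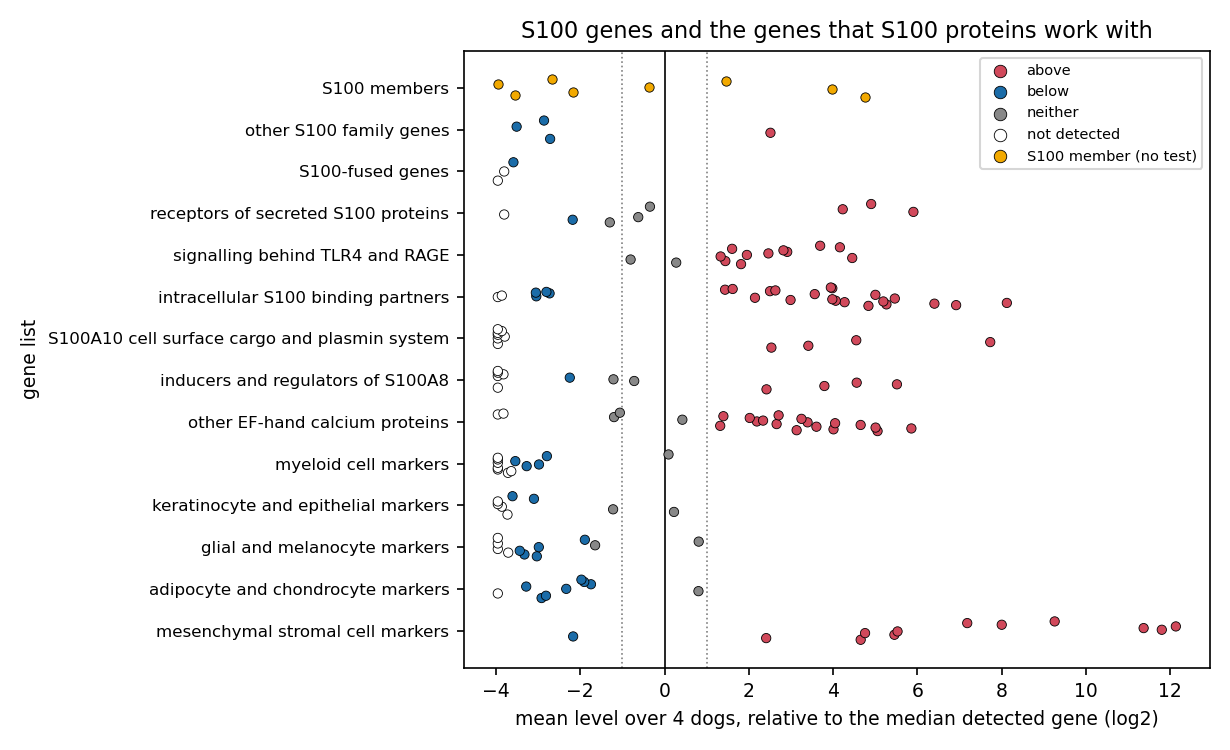
Mean level over 4 dogs (log2, relative to the median detected gene, solid line at 0, dotted lines at 1 log2 unit) of the S100 genes and of the genes in each list, with 1 point per gene coloured by its result in the limma test; the S100 members carry no test. Intracellular partners, signalling genes and EF-hand genes lie mostly to the right, with 20 of 26, 11 of 13 and 17 of 22 above, while no measured myeloid, epithelial, glial or adipocyte and chondrocyte marker passed the test as above. Over all detected genes 33.3% were above.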

How the data were processed

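Per the labels' protocols, libraries were made from 10 ng of total RNA with a stranded kit that depletes ribosomal RNA. FastQC 0.12.1, Trimmomatic 0.39, STAR 2.7.11a and DESeq2 with the build CanFam3.1 were used, per the submitters' processing notes, while the read counter, strandedness and annotation version are not stated in those notes. The deposited values are log2 values from the authors' variance-stabilizing transformation of normalized counts, for 30951 Ensembl genes. Columns were matched to samples by dog number.

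The transformation was inverted in closed form from the value of 0 reads. In each library 100% of values above it came out whole within 0.01 reads, which gave 22411268, 16246965, 15203607 and 7474011 assigned reads and size factors of 1.39, 1.08, 1.05 and 0.461 for dogs 1 to 4. Reads gave CPM, shares and exact Poisson intervals (95%), which cover counting error only. CPM divides by the total, whereas levels follow the authors' size factors, so the order of close dogs can differ between these scales.

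Tests ran on the log2 values in R 4.3.3 with limma 3.58.1, fitting the mean alone with a trended prior, a distance of 1 log2 unit and Benjamini-Hochberg adjustment over 17200 genes with reads in at least 2 libraries. Variability was tested as the variance over the trended prior variance (F test). Both were run on simulated data. The spread simulated for the variability test was far larger than the members' SDs of 0.32 to 0.65 log2 units. That simulation therefore does not show what the test would find at their spread. In the level test the error is the spread between cultures, drawn towards the trended prior. Each culture is of a separate dog per the library names. The members, the 13 lists (181 entries, 151 in the table) and the tests were chosen with earlier results of these data known. Named were all members, every receptor and MSC gene and, per list, up to the 5 highest and 3 lowest detected genes. ANXA1, DIAPH1, FGF1, ATP2A2, RYR2 and other undetected or marker genes outside that rule were chosen after their values were seen. Some genes that the rule names are not reported here. RefSeq names and gene order came from UU_Cfam_GSD_1.0, in which 10 of 10 member symbols matched. A symbol on several rows was represented by its highest row.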

Additional observations from a re-analysis of the deposited data

Results flagged for a closer look

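Of 92 S100 and named genes examined, 9 had a culture standing far from the other 3 (gap to the nearest over the range above Dixon's 95% critical value for 4 samples). The nominal rate for normally distributed values is about 1 in 20. The share over all detected genes was not computed, and CD36, CD68, ACAN and TLR4 rest on few reads, so 9 of 92 is not read as an excess. None was an S100 gene: S100A16, with dog 4 lowest, reached 0.80. Dog 4 was lowest for COL1A1 (11.21), COL1A2 (10.96), VIM (8.48) and PPARG (-0.24), and highest for KRT18 (2.60) and CD68 (-2.09). Dog 3 was highest for ACAN (-1.75), dog 2 for CD36 (-3.36, from 2 reads), and dog 1 was lowest for TLR4 (-2.57). All are levels in log2 relative to the median detected gene.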

How the results depend on the processing

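No paired analysis was possible because the labels give 1 group only. The sign of every detected S100 level held under each alternative, and no member passed the variability test under any. With the median taken over genes with reads in all 4 libraries, which lies 0.82 log2 units higher, the levels were 3.94 for S100A8, 3.15 for S100A11, 0.64 for S100A16, -1.19 for S100A13, -3.00 for S100A1, -3.49 for S100B and -4.36 for S100A12. On log2 with a pseudocount of 1 they were -2.95 for S100A1, -4.04 for S100B and -6.06 for S100A12, and with all libraries thinned to the shallowest S100A12 stood at -2.91. Leaving out each dog in turn gave 4.64 to 4.91 for S100A8, 3.84 to 4.09 for S100A11, 1.32 to 1.76 for S100A16, -0.59 to -0.21 for S100A13, -2.33 to -2.01 for S100A1, -2.86 to -2.42 for S100B and -3.71 to -3.40 for S100A12.

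With the higher reference, 6 signalling genes were above and 1 below, and 2 receptors, 2 regulators and 2 EF-hand genes were below. AGER was then below, at -2.12. Over all 17200 detected genes, 3729 were above and 7479 below with that reference. With every gene of the table tested, undetected ones included, those below numbered 3 fused S100 genes, 2 receptors, 7 of the S100A10 list, 6 regulators, 2 EF-hand genes, 11 myeloid, 6 epithelial and 9 glial genes. In that setting 19520 of all 30951 genes were below, so such counts follow the table as a whole. Without any 1 dog the regulators below numbered 1 to 2 and the EF-hand genes below 0 to 1, the higher count in both without dog 4, when IL6 and EFHD1 (-1.81) were below. KRT18 was below without dog 4 (-2.49). Quantile normalization and an untrended prior changed no list count by over 1.5 times. At 7474011 reads, 3 reads in dog 4 are 0.401 CPM, so S100A12, S100A14 and S100B cannot be compared between dogs below that.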
